A study of Mus musculus with 12 samples.

Results

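The comparison described here set gonadal white fat that lacked both Gadd45a and Ing1 against gonadal white fat that lacked Gadd45a alone, so that the genotypes differed in Ing1 and shared the Gadd45a deletion. It took the 3 arrays labelled DKO and the 3 labelled Gadd45a-KO, 6 of the 12 arrays of the series, as their labels name them. Of 55681 distinct probes, 31453 entered the test, and 15954 of those carried a gene name. The DKO mice were Gadd45a-/-;Ing1-/- and the Gadd45a-KO mice Gadd45a-/- with Ing1 intact. Both came from crossing the Gadd45a line of Hollander et al. with the Ing1 line of Kichina et al., and all were male C57BL/6N mice of 59 to 67 days. Both deletions were germline alleles, so every cell of the fat carried them. RNA of 3 mice was pooled for each array, so the 3 arrays of a genotype stood for 9 mice and the spread between arrays is a spread between pools. The other 6 arrays, wild type (WT) and Ing1-KO (Ing1-/- with Gadd45a intact), shared in the estimate of the spread and gave the same loss of Ing1 on the other background.

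Ing1 is a chromatin reader that binds methylated histone tails through its PHD finger and sits in Sin3-HDAC complexes, which remove acetyl groups from histones. Gadd45a is a small stress-induced nuclear protein that binds stress kinase activators and promotes DNA repair and active DNA demethylation, and Ing1 has been described as bringing it to chromatin. White fat stores triglyceride in adipocytes and also houses macrophages, lymphocytes, vessels and progenitor cells. All of these contribute to RNA from whole tissue.

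Each array carried 59305 spots. On the 6 arrays compared between 58.5% and 68.1% of them were well above background, and median raw signals lay between 48.5 and 65.4. On the other 6 arrays the ranges were 58.2% to 67.4% and 39.3 to 68.8. Signals are given as log2 of the background-corrected spot signal after each array was shifted to a common 75th percentile, so 1 unit is a factor of 2 and a level may be compared between arrays for a probe but not between genes. A difference is a level in DKO minus that in Gadd45a-KO, with the standard error of the fit. The word rose or fell is used of genes past a Benjamini-Hochberg adjusted p of 0.05 over all 31453 probes in limma's moderated test, 3 arrays against 3. Pairs of arrays correlated with r between 0.960 and 0.994 over the probes tested. The defining adipocyte transcripts were bright in every group: Adipoq (adiponectin) averaged 16.58 ± 0.24 (SD, n = 3) in Gadd45a-KO and 17.37 ± 0.43 in DKO, and Fabp4 (a fatty acid carrier) 18.03 ± 0.13 and 18.21 ± 0.16. Skeletal muscle transcripts stood out on replicate 1 of Gadd45a-KO, Ing1-KO and DKO, but not of WT, as described below.

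Ing1 itself separated the genotypes as labelled. Its brightest probe read 12.50, 12.37 and 12.78 on the Gadd45a-KO arrays and 9.13, 9.23 and 9.60 on the DKO arrays, a level 9.38-fold lower in DKO (log2 difference -3.23 ± 0.14, adjusted p = 1.11e-06). A second Ing1 probe averaged 10.96 in Gadd45a-KO and 4.30 in DKO, where 2 of 3 arrays were above background. The remaining Ing1 probe was above background on 0 of 3 DKO arrays and at least 19.8-fold lower there. The only Gadd45a probe gave no such check. It read 10.27, 10.19 and 10.05 in Gadd45a-KO and 10.60, 10.62 and 10.61 in DKO, above the mean of 9.51 in WT and of 9.20 in Ing1-KO. Its place relative to the targeted exons is not given in the sources used here, and no probe therefore tests the Gadd45a label. Between the Gadd45a-null groups it was 0.44 ± 0.13 higher in DKO (adjusted p = 0.0458), a call that 2 of the 12 fits leaving out 1 array kept, with differences from 0.38 to 0.49.

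Loss of Ing1 on the Gadd45a-null background changed 4704 of 31453 probes (15%), 2040 higher in DKO (6.49%) and 2664 lower (8.47%). With each array centred on its median in place of its 75th percentile, 2507 were higher and 1739 lower, so the share higher was 59.0% in place of 43.4%. Among named genes 3167 changed (19.9%), 1561 up (9.78%) and 1606 down (10.1%). Most changes were modest: the median size among called probes was 0.78, and 1281 changed by 2-fold or more, 361 up and 920 down. At 4-fold or more, 8 rose and 58 fell. At an unadjusted p under 0.05 there were 10359, where 1573 would be expected of a test with no differences. The arrays of the groups did not overlap for 11724 probes (37.3%), and 4647 of the 4704 calls were among these.

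The number of calls depended on single arrays. It was 1079 without Gadd45a-KO replicate 2, 539 without Gadd45a-KO replicate 3, 887 without DKO replicate 1 and 639 without DKO replicate 2, and 7065 without DKO replicate 3. Leaving out Ing1-KO replicate 3 gave 3046 calls. With only the 6 arrays compared in the fit, 502 probes were called, 493 of them among the 4704. Single calls were followed for the genes named below by rule, apart from genes named only as neighbours of Ing1. Genes of smallest p, chosen after the values were seen, were followed too, and that choice favours stable calls. Together these genes held 157 calls, of which 54 remained without any 1 array. Gadd45a-KO replicate 3 ended 95 of them when left out, DKO replicate 2 ended 94, DKO replicate 1 ended 92 and Gadd45a-KO replicate 2 ended 81. None reversed its sign. Counts for gene lists are given below also without Gadd45a-KO replicate 2, Gadd45a-KO replicate 3, DKO replicate 1 and DKO replicate 2, each left out in turn and always in that order, and these are called the 4 reduced fits.

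**Figure D1:**
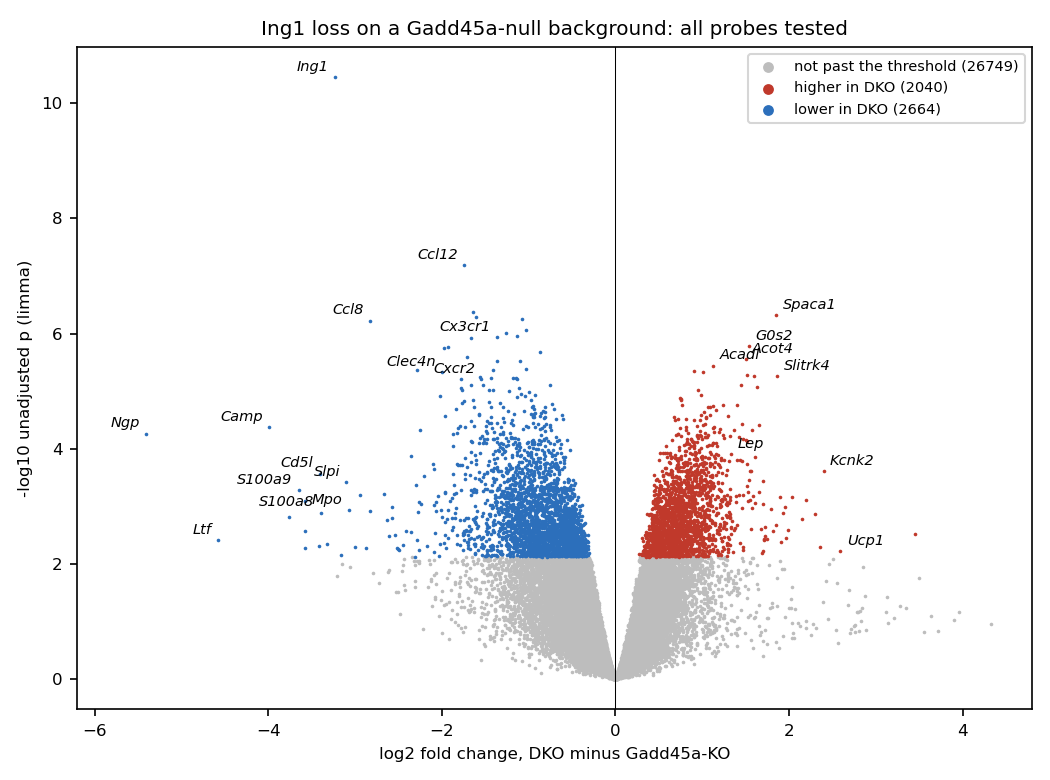
Each point is 1 of 31453 probes, with the log2 difference between DKO and Gadd45a-KO on the x axis and -log10 of limma's unadjusted p on the y axis; red probes were higher in DKO (2040), blue probes lower (2664), and grey probes did not pass the threshold. The largest differences are falls, led by neutrophil granule genes such as Ngp, Ltf and Camp, and Ing1 has the smallest p.

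Behind Ing1, the 20 named genes with the smallest p held 15 falls and 5 rises. This choice was made after the values were seen. Ccl12, a chemokine that attracts monocytes, read 10.87, 10.66 and 10.64 in Gadd45a-KO and 8.85, 8.83 and 9.28 in DKO, a fall of 3.34-fold (-1.74 ± 0.15, adjusted p = 0.00101). The related chemokine Ccl8 fell from 14.83, 14.93 and 14.35 to 11.91, 11.60 and 12.11, 7.09-fold (-2.83 ± 0.29, adjusted p = 0.00268). Every DKO array lay below every Gadd45a-KO array for Ccl8, and the groups did not overlap for either gene. Cx3cr1, the fractalkine receptor of monocytes and resident macrophages, read 10.88, 11.12 and 10.98 against 9.64, 9.35 and 9.88 (-1.37 ± 0.15, adjusted p = 0.00311). Cd300c2, a myeloid surface receptor, fell by 1.61 ± 0.17 on the log2 scale, Clec4n (Dectin-2, a receptor for fungal sugars) by 2.00 ± 0.25 and Lilra6, a leukocyte receptor with closely similar copies in the genome, by 1.41 ± 0.18. The cholesterol exporter Abcg1 fell by 1.03 ± 0.11, the heparan sulfate cutter Hpse by 1.26 ± 0.14 and the prostaglandin carrier Slco2a1 by 1.09 ± 0.13. The other falls were of Rtn1, a reticulon of the endoplasmic reticulum (-1.08 ± 0.11), Cstad (-1.13 ± 0.13), the predicted gene Gm14548 (-1.93 ± 0.22), the cytoskeletal adaptor Epb41l3 (-0.87 ± 0.10), the adhesion receptor Adgrg3 (-1.36 ± 0.17) and Smc1b, a subunit of meiotic cohesin (-2.28 ± 0.29). Smc1b was above background on 1 of 3 DKO arrays, and it fell by less with normexp background correction, at -0.84. Gm14548 was not refitted without single arrays, and the other 14 of these calls were kept in all 12 fits that left out 1 array.

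The rise with the smallest p was that of Spaca1, a sperm acrosome membrane protein, whose values are given with the largest rises below. G0s2, a protein that holds back the triglyceride lipase of fat, read 11.75, 11.76 and 12.001 in Gadd45a-KO and 13.70, 13.40 and 13.02 in DKO, 2.90-fold higher (1.54 ± 0.18, adjusted p = 0.00377). Acot4, a peroxisomal thioesterase of dicarboxylic acyl-CoAs, rose from 6.68, 6.79 and 6.76 to 8.43, 7.96 and 8.34, 2.83-fold (1.50 ± 0.18, adjusted p = 0.00474). Acadl, the long-chain acyl-CoA dehydrogenase, went from 12.79, 12.84 and 12.64 to 13.83, 14.04 and 13.80, 2.19-fold (1.13 ± 0.14, adjusted p = 0.00532). No array of either group entered the range of the other for these 3 genes. Isca1, which builds mitochondrial iron-sulfur clusters, rose by 0.91 ± 0.12. All of these calls too held without any 1 array.

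**Figure D2:**
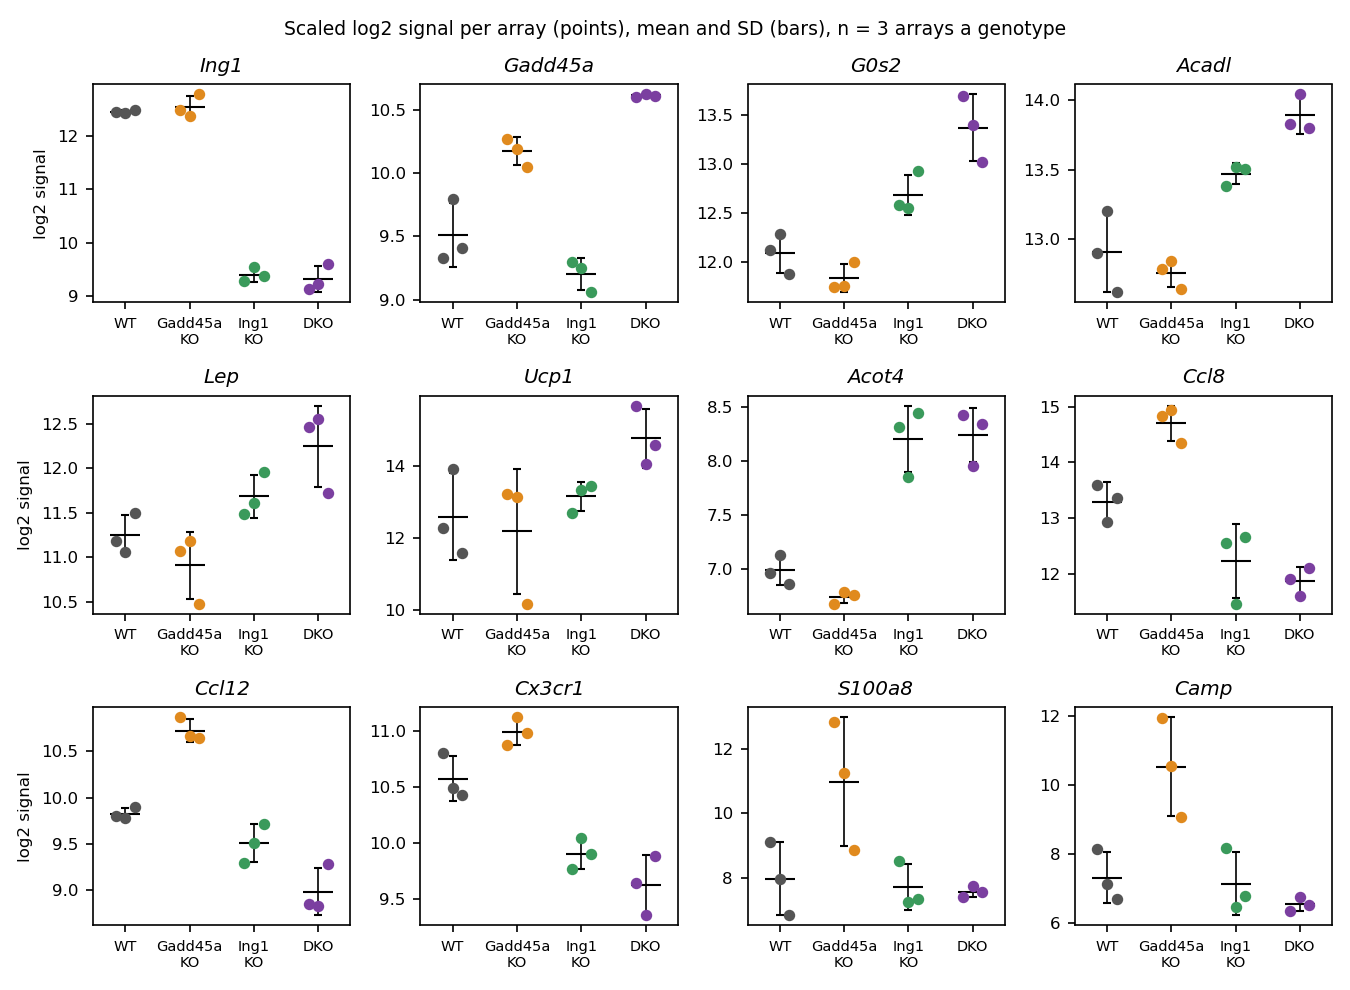
Scaled log2 signal of 12 genes on each array of the 4 genotypes (points; replicates 1, 2 and 3 from left to right), with the mean and SD as bars, n = 3 arrays, each panel with its own axis. Ing1 is low in both groups that lack it, G0s2, Acadl and Acot4 are higher in DKO than in Gadd45a-KO with no overlap, and S100a8 and Camp spread over several units within Gadd45a-KO while the DKO arrays lie close together.

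Ranked by size among called named genes whose groups did not overlap, the 12 largest falls included 6 neutrophil markers. Ngp (neutrophilic granule protein) read 9.43, 8.20 and 6.37 in Gadd45a-KO and was above background on 0 of 3 DKO arrays, at least 14.4-fold lower (adjusted p = 0.00984). For such a bound, readings of the dim group under the lowest signal that counted as above background on that array were raised to it. Its other readings stood as measured. These bounds hold for the processing described above alone. Over the settings other than leaving out an array, the log2 difference of Ngp was as small as -2.26. Camp, the cathelicidin precursor, fell 15.9-fold from 11.95, 10.55 and 9.08 to 6.35, 6.75 and 6.50 (-3.99 ± 0.63, adjusted p = 0.00908). S100a9, a subunit of calprotectin, read 14.79, 13.45 and 11.40 against 9.11, 9.89 and 9.69 (-3.65 ± 0.78, adjusted p = 0.0176). Its partner S100a8 read 12.83, 11.24 and 8.87 against 7.42, 7.76 and 7.57 (-3.39 ± 0.81, adjusted p = 0.0234). Lactoferrin (Ltf), above background on 2 of 3 DKO arrays, fell by 4.58 ± 1.28 and myeloperoxidase (Mpo) by 3.07 ± 0.73. In all 6 genes Gadd45a-KO replicate 1 was highest and Gadd45a-KO replicate 3 lowest of its group, so the size of the fall varied between pools. Ngp and Camp kept their calls without any 1 array. S100a9 and Mpo lost theirs without Gadd45a-KO replicate 2, DKO replicate 1 or DKO replicate 2, where S100a9 differed by between -4.56 and -2.86 over all 12 such fits and Mpo by between -3.92 and -2.05. S100a8 lost its call also without Gadd45a-KO replicate 1 (-4.45 to -2.47), and Ltf in 6 of the 12 fits (-5.52 to -3.39).

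The other large falls were of mixed kinds. Cd5l, a scavenger protein secreted by tissue macrophages, read 13.15, 13.12 and 10.78 in Gadd45a-KO and 9.12, 8.34 and 9.37 in DKO (-3.41 ± 0.67, adjusted p = 0.0142). Slpi, an inhibitor of leukocyte proteases, read 12.08, 12.36 and 10.04 against 7.55, 7.91 and 9.71 (-3.10 ± 0.63, adjusted p = 0.0162), with Gadd45a-KO replicate 3 and DKO replicate 3 close to each other. Wfdc6a and Wfdc6b, near-identical protease inhibitor genes that a probe may not tell apart, and the vomeronasal receptor gene Vmn1r197 were dim. Wfdc6b and Vmn1r197 were above background on all 3 Gadd45a-KO arrays and on 0 of 3 DKO arrays, at least 4.56-fold and 3.69-fold lower. Wfdc6a fell by 3.16 ± 0.97 and was above background on 1 of 3 DKO arrays. Of the 6 arrays, Gadd45a-KO replicate 3 was the highest for all 3 of these genes. Ing1 completed the 12. Cd5l lost its call without Gadd45a-KO replicate 2 or DKO replicate 2 (-4.19 to -3.01 over the 12 fits that left out 1 array), and Slpi without either of those or DKO replicate 1 (-3.83 to -2.67). Wfdc6b and Vmn1r197 kept theirs in 8 of the 12 fits and Wfdc6a in 4.

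Among the 12 largest rises, Ucp1 is the uncoupling protein that lets brown fat produce heat. It read 13.24, 13.14 and 10.18 in Gadd45a-KO and 15.68, 14.06 and 14.61 in DKO, 6.04-fold higher (2.59 ± 0.78, adjusted p = 0.0445). The groups did not overlap, but Gadd45a-KO replicate 3 lay well below its group mates and the call was kept in 3 of the 12 fits that left out 1 array, with differences from 1.59 to 3.12. Slitrk4, a synaptic adhesion protein, rose from 5.88, 5.43 and 5.52 to 7.38, 7.86 and 7.19 (1.87 ± 0.24, adjusted p = 0.00532). Spaca1 rose from 7.39, 7.72 and 7.43 to 9.52, 9.45 and 9.13 (1.86 ± 0.19, adjusted p = 0.00268). Both kept their calls without any 1 array. Kcnk2, a mechanosensitive potassium channel, read 4.81, 4.61 and 2.92 against 6.56, 6.54 and 6.44 (2.40 ± 0.47, adjusted p = 0.0139), with 2 of 3 Gadd45a-KO arrays above background. Slc25a34, a mitochondrial carrier, read 6.28, 5.97 and 5.57 against 8.54, 8.57 and 6.66 (1.99 ± 0.52). The carboxypeptidase N subunit Cpn2 rose by 2.15 ± 0.53, Lrmda by 2.35 ± 0.69, the pro-apoptotic Hrk by 1.85 ± 0.47 and the secreted neuronal protein Lgi1 by 1.81 ± 0.48, with 1 of 3 Gadd45a-KO arrays above background for Hrk and for Lgi1. Ccl28, an epithelial chemokine, was above background on 0 of 3 Gadd45a-KO arrays and at least 4.07-fold higher in DKO. Lce1e and Rec114, above background on 0 of 3 Gadd45a-KO and 2 of 3 DKO arrays each, were at least 3.91-fold and 1.83-fold higher. Neither was above background on any WT array, and 1 Ing1-KO array was for Lce1e and 2 for Rec114. Both thus met the filter of 3 of the 12 arrays only through arrays that lacked Ing1. Their place among the largest rises is in part set by that filter. Over the settings other than leaving out an array, the smallest log2 differences were less than these bounds. They were 0.72 for Ccl28, 0.91 for Lce1e and 0.34 for Rec114. With normexp background correction Ucp1, Lce1e, Rec114, Hrk and Lgi1 lost their calls. Ucp1 and Lrmda lost theirs with no filter on dim probes and with plain empirical Bayes, and Lce1e and Lgi1 with the authors' values. With only the 6 arrays compared in the fit, Slitrk4, Spaca1 and Ccl28 alone kept theirs. Of the 12, Slitrk4 and Spaca1 alone kept the call without any 1 array, and among those fits Kcnk2 lost it only without DKO replicate 2.

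The promoters of called genes were compared with those of all genes tested, over the 250 bases before each annotated start, for 3 motifs chosen after the values were seen. RefSeq promoters (build GRCm38.p6) matched 12646 of the 15954 named genes, with 15914 promoters. The letters were TTGCNNAA for C/EBP factors, which drive adipocyte and granulocyte genes, GAGGAAGT for PU.1 of myeloid and B cells, and AAGGTCA for the estrogen-related receptors (ERR) of mitochondrial genes, each searched on both strands. The C/EBP letters stood in 8.36% of all promoters, in 8.63% of those of genes higher in DKO and in 9.64% of those of genes lower. For the PU.1 letters the shares were 2.42%, 1.29% and 4.42%, and for the ERR letters 3.29%, 3.16% and 3.44%. Promoters of genes that fell held 12.001 CpG on average and those of genes that rose 15.41, against 14.46 over all. Shown here, 5' to 3' on the gene's strand with the motif in capitals, are the promoters of 2 genes that rose and 2 that fell, each with 1 of these motifs, to let the letters be seen beside the values. They lie at chr6:29059971-29060220 (plus strand) for Lep, chr12:84038129-84038378 (plus strand) for Acot4, chr7:3915502-3915751 (minus strand) for Lilra6 and chr9:110419558-110419807 (plus strand) for Ngp.
Lep: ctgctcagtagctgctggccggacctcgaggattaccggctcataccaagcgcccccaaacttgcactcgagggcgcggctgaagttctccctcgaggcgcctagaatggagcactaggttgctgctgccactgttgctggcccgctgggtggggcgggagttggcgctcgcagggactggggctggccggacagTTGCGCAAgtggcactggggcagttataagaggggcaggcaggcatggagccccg
Acot4: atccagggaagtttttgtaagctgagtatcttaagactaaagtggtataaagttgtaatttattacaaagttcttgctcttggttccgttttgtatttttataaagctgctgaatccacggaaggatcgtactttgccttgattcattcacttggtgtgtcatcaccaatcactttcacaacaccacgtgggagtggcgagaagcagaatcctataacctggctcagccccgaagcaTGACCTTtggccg
Lilra6: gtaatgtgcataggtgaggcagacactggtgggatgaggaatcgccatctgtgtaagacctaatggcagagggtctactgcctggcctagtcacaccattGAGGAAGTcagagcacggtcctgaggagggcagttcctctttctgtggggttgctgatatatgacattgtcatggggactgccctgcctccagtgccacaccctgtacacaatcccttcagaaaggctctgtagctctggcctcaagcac
Ngp: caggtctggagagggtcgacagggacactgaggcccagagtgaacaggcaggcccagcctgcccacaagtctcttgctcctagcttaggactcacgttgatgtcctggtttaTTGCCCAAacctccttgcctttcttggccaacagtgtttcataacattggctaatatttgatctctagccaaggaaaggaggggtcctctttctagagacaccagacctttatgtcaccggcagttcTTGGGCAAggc
The capitals in Lep start 55 bases before the annotated start and match C/EBP. In Acot4 they start 13 bases before it and are the ERR letters on the opposite strand. The PU.1 letters of Lilra6 start 150 bases before its start, and Ngp holds the C/EBP letters 138 and 11 bases before. These are matches of letters, and no binding was measured.

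Genes of fatty acid oxidation rose together. Of 20 tested, 18 rose and 1 fell, where 9.78% of all named genes rose and 10.1% fell. Their median difference was 0.93, against -0.03 over all probes. Besides Acadl, Hadh (3-hydroxyacyl-CoA dehydrogenase) rose from 14.27, 14.15 and 13.81 to 15.31, 15.21 and 14.84 (1.04 ± 0.16, adjusted p = 0.00834). Acadm, the medium-chain dehydrogenase, rose by 1.09 ± 0.19 and Slc25a20, the carnitine-acylcarnitine carrier of the inner membrane, by 1.25 ± 0.23. The single fall was of Cpt1a, the liver form of the outer-membrane carnitine transferase, at 11.52 ± 0.14 in Gadd45a-KO and 11.06 ± 0.10 in DKO (-0.45 ± 0.12, adjusted p = 0.033). The muscle and brown fat form, Cpt1b, went the other way by 1.53 ± 0.54 without passing (adjusted p = 0.0727). In the 4 reduced fits 8, 5, 5 and 4 of the 20 rose. Within the 3 slides, each of which held 1 array of each genotype, the list's median difference was 0.85, 0.90 and 1.03. The groups are whole tissue, so more adipocyte RNA and more of these transcripts per adipocyte cannot be told apart, and the same holds for fewer cells of a type and less RNA per cell wherever a marker list fell.

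The mitochondrial lists downstream of fatty acid oxidation moved the same way. Of 29 respiratory chain subunits 18 rose and 0 fell, and all 29 had positive differences, from 0.36 to 1.02 with a median of 0.71. Sdha, a subunit of complex II, read 14.82, 14.66 and 14.49 in Gadd45a-KO and 15.54, 15.32 and 15.27 in DKO (0.72 ± 0.14, adjusted p = 0.0127). Ndufs1 of complex I rose by 0.74 ± 0.16 and Sdhc by 0.75 ± 0.17. In the reduced fits 2, 1, 1 and 1 of the 29 rose. Of 18 enzymes of the TCA cycle 12 rose (median 0.75), and 6, 3, 4 and 3 did in the reduced fits. Suclg2 (succinyl-CoA ligase) rose by 0.82 ± 0.13, Sucla2 by 1.09 ± 0.20 and Dld, the shared dihydrolipoamide dehydrogenase, by 0.84 ± 0.16.

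Breakdown of branched-chain amino acids, a fuel of adipocyte mitochondria, went up too, with 17 of 18 enzymes up and a median of 0.87. Aldh6a1, which acts late in valine breakdown, read 14.37, 14.29 and 14.20 in Gadd45a-KO and 15.63, 15.45 and 15.04 in DKO (1.09 ± 0.16, adjusted p = 0.00834). Mmut (methylmalonyl-CoA mutase) and Hibch rose by 0.97 ± 0.15 and 0.97 ± 0.16, and Dbt, a subunit of the committing dehydrogenase, by 0.98 ± 0.16. The counts that rose in the reduced fits were 8, 6, 7 and 7 of the 18. Of 20 peroxisomal genes 15 rose (median 0.70), with the smallest p for Ech1 (1.12 ± 0.19), Acaa1b (1.04 ± 0.21), whose probe may also read its close copy Acaa1a, Pecr (0.66 ± 0.15) and the import factor Pex19 (0.93 ± 0.21). There the reduced fits gave 2, 1, 1 and 1.

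Adipocyte identity genes were higher in DKO as well. Of 19 white adipocyte markers 12 rose and 0 fell, with a median of 0.80 and 4, 2, 3 and 3 in the reduced fits. Lep, the adipocyte hormone that signals fat stores, read 11.07, 11.18 and 10.48 in Gadd45a-KO and 12.46, 12.55 and 11.72 in DKO, 2.53-fold higher (1.34 ± 0.24, adjusted p = 0.0115). Trhde, a peptidase, rose from 5.98, 6.26 and 6.02 to 7.88, 8.03 and 7.16 (1.60 ± 0.29, adjusted p = 0.0119). Cd36, the fatty acid transporter, rose by 0.97 ± 0.18 and Acsl1, which activates fatty acids, by 0.85 ± 0.18. Adipoq differed by 0.79 ± 0.25 (adjusted p = 0.0553) and Fabp4 by 0.18 ± 0.14 (adjusted p = 0.404). The level of the white adipocyte list, its mean over members after each was centred on its mean over all 12 arrays, was -0.26, -0.41 and -0.46 in Gadd45a-KO and 0.64, 0.49 and 0.05 in DKO. Summed linear signals ran from 1168900 to 1370000 in Gadd45a-KO and from 1450100 to 2188400 in DKO.

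In the list of brown and beige fat genes 7 of 20 rose and 1 fell, with the highest median of any list, 1.16, and wide spread. Ppargc1a, the coactivator of mitochondrial biogenesis, read 9.31, 8.96 and 8.89 in Gadd45a-KO and 10.49, 10.50 and 9.68 in DKO (1.17 ± 0.26, adjusted p = 0.0187). Ppara, the fatty acid receptor that drives oxidation genes, rose by 1.22 ± 0.28 and Ebf2, a selector of brown fat genes, by 0.94 ± 0.17. Tmem26, a surface marker of beige cells, went against the list, from 6.57, 6.81 and 6.64 to 4.78, 5.03 and 5.78 (-1.48 ± 0.24, adjusted p = 0.00972), and kept its call without any 1 array. Cidea, a droplet protein, was higher by 1.24 ± 0.40 (adjusted p = 0.0568) and the elongase Elovl3 by 2.55 ± 0.97 (adjusted p = 0.0905), and neither passed. In each of the reduced fits 1 member rose. Slide medians were 0.82, 0.90 and 1.66.

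Lipid storage genes were higher with few single calls. Of 18 lipogenesis genes 3 rose, the lipase-related Pnpla3 (1.04 ± 0.25), the carbohydrate-sensing factor Mlxipl (0.92 ± 0.24) and the desaturase Fads1 (0.72 ± 0.19). All 18 differences were positive with a median of 0.57, which was 0.28 without Gadd45a-KO replicate 3, and none rose in any of the reduced fits. Thrsp, a lipogenic nuclear protein, differed by 0.79 ± 0.27 (adjusted p = 0.0672). Of 15 triglyceride synthesis genes 6 rose (median 0.79; 2, 1, 1 and 2 in the reduced fits). Lpin1, the phosphatidate phosphatase, read 11.58, 11.40 and 10.62 against 12.56, 12.29 and 12.49 (1.25 ± 0.21, adjusted p = 0.0099), and Dgat1, Gpam and Pck1 rose by 0.96 ± 0.20, 0.86 ± 0.18 and 0.79 ± 0.18. Of 19 lipolysis and lipid droplet genes 7 rose (median 0.71; 2, 1, 1 and 1 in the reduced fits, and 11 with the slide as a block). Besides G0s2, the droplet proteins Fitm2 (1.18 ± 0.23), Bscl2 (0.85 ± 0.22) and Plin1 (0.73 ± 0.20) rose.

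Glucose handling shifted in part. Of 22 glycogen genes 8 rose and 0 fell (median 0.60, and 0.38 without Gadd45a-KO replicate 3; 3, 3, 3 and 3 in the reduced fits). Ppp1r3c, the targeting subunit that brings a phosphatase to glycogen, read 9.68, 9.76 and 10.06 in Gadd45a-KO and 11.17, 11.49 and 11.40 in DKO, 2.87-fold higher (1.52 ± 0.20, adjusted p = 0.00532). Hk2 (hexokinase) rose by 1.05 ± 0.16, the phosphorylase Pygb by 1.00 ± 0.18 and the synthase Gys1 by 0.90 ± 0.19. Ppp1r3c, Hk2 and Pygb held without any 1 array. Of 20 insulin signalling genes 7 rose and 3 fell (median 0.50, and 0.31 without DKO replicate 2; 1, 0, 0 and 0 rose and none fell in the reduced fits). The kinase subunit Pik3cb (0.68 ± 0.14) and the phosphodiesterase Pde3b (0.77 ± 0.17) rose, while Ptpn1, the phosphatase that turns the insulin receptor off, fell by 0.63 ± 0.16.

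Of 19 cholesterol genes 9 rose (median 0.68; 2, 1, 1 and 1 in the reduced fits), among them Hmgcs1 at the head of the pathway, which read 13.31, 13.44 and 13.36 against 14.64, 14.68 and 14.26 (1.16 ± 0.21, adjusted p = 0.0115). Hsd17b7, Fdft1 and Lss rose by 0.72 ± 0.16, 0.80 ± 0.21 and 1.03 ± 0.27. Of 20 PPAR target genes 17 had positive differences (median 0.67), and 5 rose and 2 fell. In the reduced fits 2, 1, 2 and 2 rose and 0, 0, 1 and 0 fell, and with the slide as a block 9 rose. Acot4, Cd36 and the peroxisome factor Pex11a (0.85 ± 0.22) rose and the uncoupling protein Ucp3 fell by 0.51 ± 0.12. Glucocorticoid targets had a median of -0.05, with 2 of 19 up and 3 down. In each of the reduced fits 1 of them rose, and 0, 1, 0 and 0 fell, and with the slide as a block 5 rose. Their median changed sign with the array left out, from -0.15 without DKO replicate 1 to 0.02 without Gadd45a-KO replicate 3. Rasd1, a small GTPase, rose by 1.44 ± 0.19 and the phosphatase Dusp1 by 0.61 ± 0.16, while the neutrophil and adipocyte lipocalin Lcn2 fell by 2.01 ± 0.48 and Nfkbia by 0.53 ± 0.15. In the clock list 3 of 19 rose, Clock (0.71 ± 0.19), Nfil3 (0.65 ± 0.18) and Rora (0.74 ± 0.20), and none did in any of the reduced fits. Its median was 0.23, 0.36 without DKO replicate 1 and 0.14 without DKO replicate 3.

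**Figure D3:**
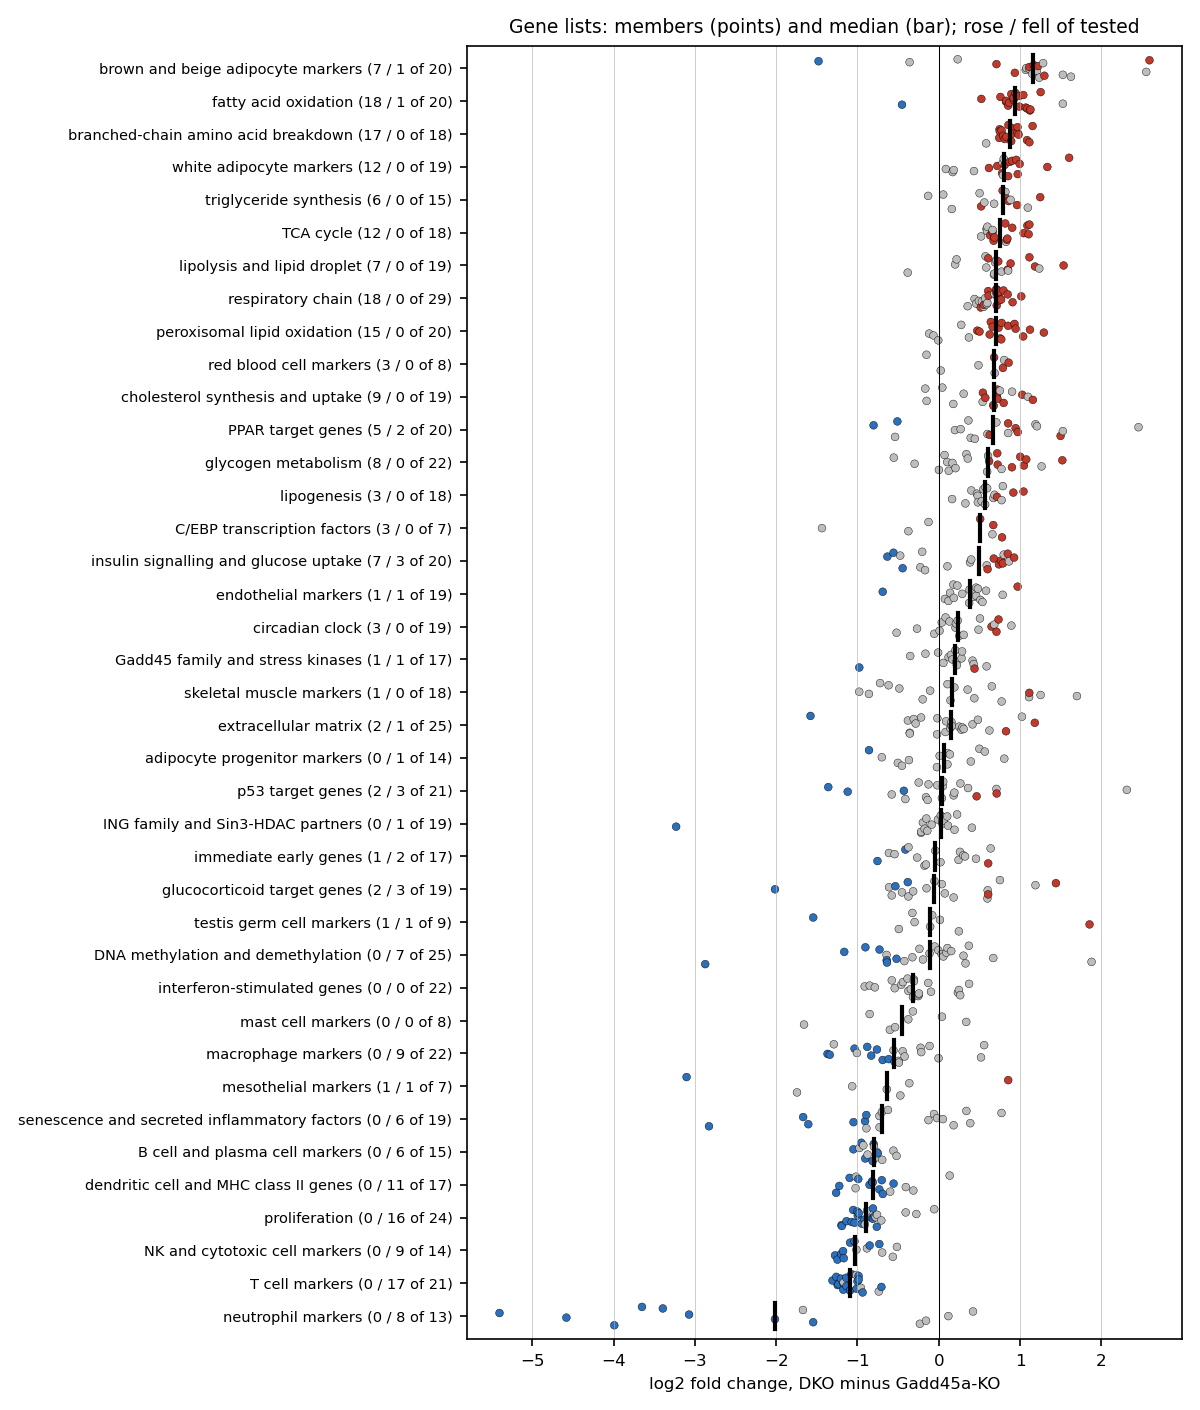
Log2 difference between DKO and Gadd45a-KO of each tested member of 39 gene lists (points; red rose, blue fell, grey did not pass), ordered by the list's median (bar), with the counts that rose and fell of those tested beside each name. Fat metabolism and adipocyte lists lie right of 0 (fatty acid oxidation median 0.93), immune and proliferation lists left of it (T cell markers -1.09, neutrophil markers -2.01).

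Some markers of neutrophils, macrophages, dendritic cells and lymphocytes fell, while none of the mast cell markers passed. Of 13 neutrophil markers tested 8 fell, where 10.1% of named genes did, with a median of -2.01. Cxcr2, the chemokine receptor of mature neutrophils, read 8.90, 8.85 and 8.91 in Gadd45a-KO and 7.59, 6.88 and 7.55 in DKO (-1.54 ± 0.20, adjusted p = 0.00532), and kept its call without any 1 array. In the reduced fits 3, 7, 3 and 3 members fell. Csf3r, Prtn3, Elane and Mmp9 did not change detectably, with differences between -0.23 and 0.42. The list level was 2.49, 1.51 and 0.54 in Gadd45a-KO and -1.05, -0.42 and -0.71 in DKO, and it was 0.23, -0.08 and -0.83 in WT. The 3 Gadd45a-KO arrays were thus the highest of all 12 for this list. Slide medians were -3.21, -1.97 and -1.27. Summed signal ran from 129980 to 163110 in Gadd45a-KO and from 101960 to 114660 in DKO. S100a9, the brightest in DKO of the 8 that fell, averaged 9.56 there on the log2 scale. Members that did not fall thus made up most of the DKO sums.

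Of 22 macrophage markers 9 fell and 0 rose, with a median of -0.55 and 4, 3, 3 and 3 in the reduced fits. Csf1r, the receptor for the macrophage growth factor, read 14.85, 14.96 and 14.76 in Gadd45a-KO and 13.90, 14.20 and 13.98 in DKO (-0.83 ± 0.12, adjusted p = 0.00818). The lysosomal protease Ctss fell from 14.87, 15.05 and 15.22 to 13.27, 13.52 and 14.33 (-1.34 ± 0.23, adjusted p = 0.0099), and both calls held without any 1 array. Lyz1, a lysozyme whose probe may also read Lyz2, fell by 0.76 ± 0.15. The mannose receptor Mrc1 (-0.11 ± 0.21, adjusted p = 0.758) and the adhesion receptor Adgre1 (-0.49 ± 0.28, adjusted p = 0.244), did not pass. The list level was 0.29, 0.30 and 0.31 in Gadd45a-KO and -0.29, -0.16 and -0.33 in DKO, and its summed signal 193820 to 228050 and 138900 to 162370. WT arrays were at 0.38, above the Gadd45a-KO arrays, at -0.08, between the groups, and at -0.19, within the DKO range. Of 17 dendritic cell and MHC class II genes 11 fell (median -0.81). The integrin Itgax, which encodes CD11c, fell by 1.10 ± 0.23, the factor Irf8 by 0.99 ± 0.21, and the class II genes H2-DMa and H2-Eb1 by 0.81 ± 0.18 and 0.70 ± 0.16. The reduced fits gave 1, 0, 0 and 0, and the summed signal was 453240 to 540910 in Gadd45a-KO and 232930 to 364460 in DKO.

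Lymphocyte markers had lower levels in DKO without exception in sign. All 21 T cell markers, 15 B and plasma cell markers and 14 NK and cytotoxic markers had negative differences, and 17, 6 and 9 of them fell. Medians were -1.09, -0.80 and -1.02. Cd3e of the T cell receptor complex read 13.22, 13.04 and 13.56 in Gadd45a-KO and 12.44, 11.70 and 12.66 in DKO (-1.01 ± 0.24, adjusted p = 0.0239), and the costimulator Icos fell by 1.31 ± 0.28. In B cells Fcrla fell by 1.05 ± 0.26 and the lineage factor Pax5 by 0.80 ± 0.23. Tbx21, the T-bet factor of NK and Th1 cells, fell by 1.09 ± 0.23 and the chemokine Ccl5 by 1.25 ± 0.30. DKO replicate 2 was the lowest array of the list levels for all 3. Without it the T cell median was -0.73 and the B cell median -0.47. T cell list levels were 0.36, 0.37 and 0.63 in Gadd45a-KO and -0.50, -1.35 and 0.00 in DKO, and B cell levels 0.29, 0.42 and 0.36 against -0.33, -1.13 and 0.11. Slide medians for T cells were -0.90, -1.78 and -0.66. In the reduced fits 0, 0, 0 and 1 T cell markers fell, 0, 1, 0 and 0 B cell markers and 1, 0, 0 and 0 NK markers. Without DKO replicate 3, 21 T cell markers and 15 B cell markers did. Summed signals in Gadd45a-KO and DKO were 133670 to 168530 and 40921 to 103170 for T cells, 140900 to 165450 and 53422 to 126090 for B cells and 72346 to 87858 and 21773 to 50466 for NK cells.

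**Figure D4:**
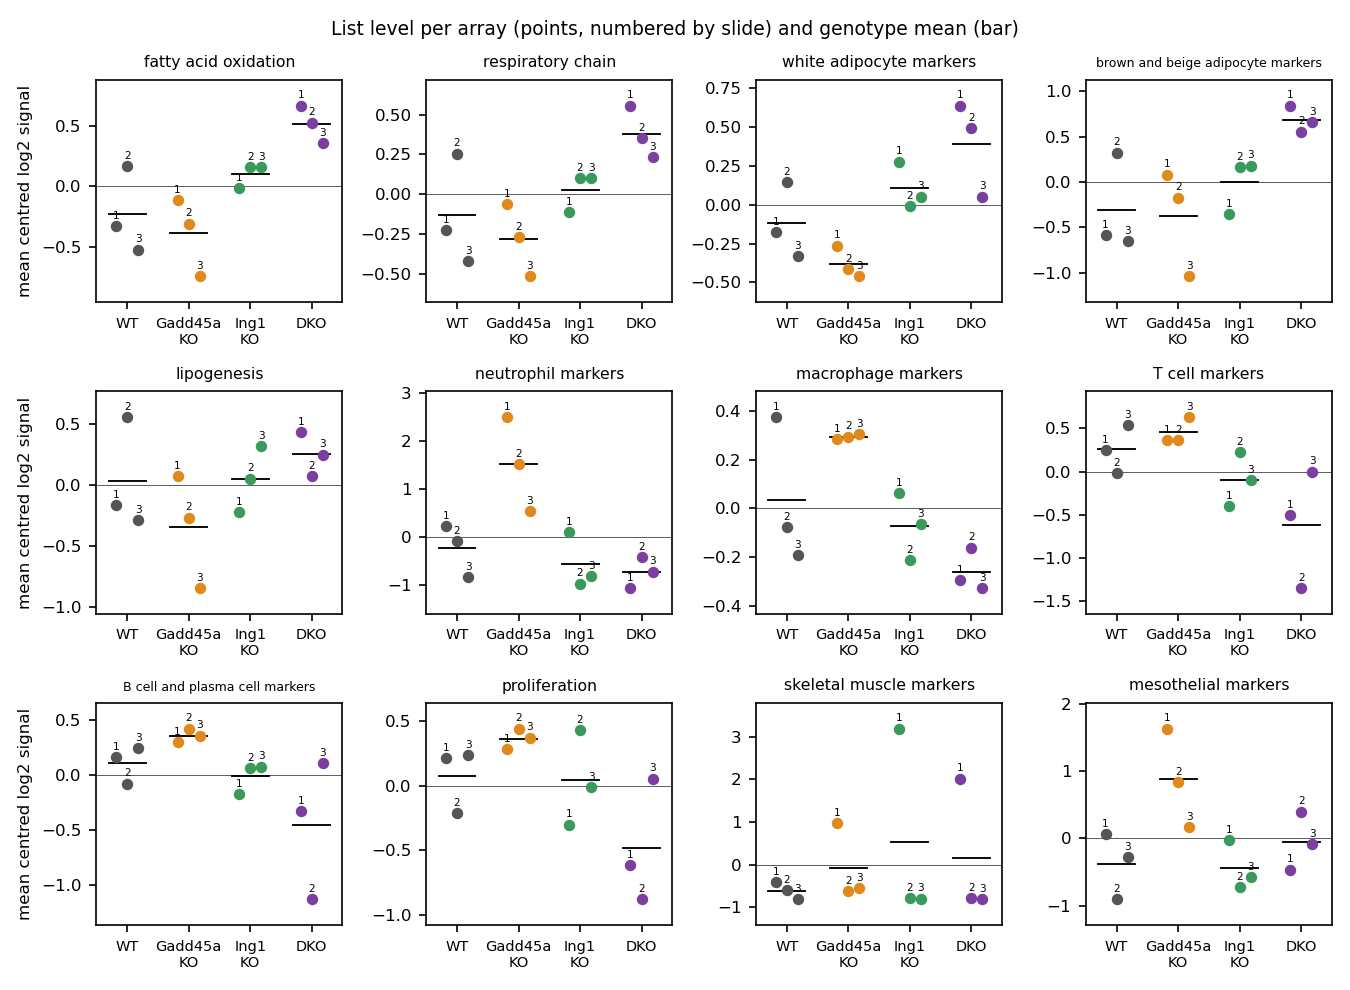
Level of 12 gene lists on each array (points, numbered by the slide), as the mean log2 signal of the members after each was centred on its mean over the 12 arrays, with the genotype mean as a bar. Fat metabolism lists have their highest genotype mean in DKO, but single arrays of other genotypes can lie above DKO arrays. For lipogenesis WT replicate 2 is the highest of all (0.56). Neutrophil markers are highest in Gadd45a-KO (2.49, 1.51 and 0.54), and T and B cell markers are lowest on DKO replicate 2. Skeletal muscle markers are high on the slide 1 arrays of Gadd45a-KO, Ing1-KO and DKO.

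Cell division genes fell as well. Of 24 proliferation genes 16 fell, all 24 differences were negative, and the median was -0.89. Cdc20, which triggers anaphase, read 10.46, 10.61 and 10.41 in Gadd45a-KO and 9.24, 8.89 and 9.95 in DKO (-1.13 ± 0.22, adjusted p = 0.0143). Birc5 (survivin) fell by 1.19 ± 0.25, the replication helicase subunit Mcm3 by 0.82 ± 0.18 and the mitotic kinase Aurka by 0.76 ± 0.17. List levels were 0.28, 0.44 and 0.37 in Gadd45a-KO and -0.62, -0.88 and 0.05 in DKO, in the same order among the DKO arrays as the lymphocyte lists. Slide medians were -0.96, -1.38 and -0.34. In the reduced fits 1, 0, 0 and 0 fell, and 21 did without DKO replicate 3.

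Of 19 senescence and secreted inflammatory factors 6 fell and 0 rose, with a median of -0.70 and 4, 3, 3 and 4 in the reduced fits. Besides Ccl8, the cytokine Il1b read 7.52, 7.64 and 7.12 in Gadd45a-KO and 5.45, 5.71 and 6.12 in DKO (-1.67 ± 0.26, adjusted p = 0.00863). Cdkn2a, a locus of cell cycle inhibitors, read 7.996, 8.01 and 7.93 against 6.75, 5.49 and 6.89 (-1.60 ± 0.30, adjusted p = 0.0127). The neutrophil attractant Cxcl1 fell by 1.05 ± 0.21. Il1b and Cdkn2a held without any 1 array. The monocyte attractant Ccl2 differed by -0.89 ± 0.29 (adjusted p = 0.0549), and Cdkn1a, another cell cycle inhibitor, by 0.18 ± 0.27 (adjusted p = 0.681).

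Few partners of the deleted genes passed the test. Of 19 ING family and Sin3-HDAC members Ing1 alone passed. The 18 others differed by between -0.22 and 0.41, with Hdac2 at 0.41 ± 0.19 (adjusted p = 0.155) and Hdac1 at -0.17 ± 0.10 (adjusted p = 0.247). In the Gadd45 and stress kinase list, Gadd45b, the sister of Gadd45a, fell from 11.95, 11.88 and 11.97 to 10.91, 10.65 and 11.30 (-0.98 ± 0.19, adjusted p = 0.0137). Its call was lost without Gadd45a-KO replicate 3 or DKO replicate 2, with differences from -1.15 to -0.83 over the 12 fits. Gadd45g was higher by 0.59 ± 0.22 with overlapping groups (adjusted p = 0.0829), and of the 17 genes the Gadd45a probe was the only one that rose. Among 7 C/EBP family factors, Cebpg rose from 9.83, 9.99 and 9.83 to 10.55, 10.64 and 10.47 (0.67 ± 0.10, adjusted p = 0.00834), Ddit3 (CHOP) by 0.51 ± 0.11 and Cebpa, the adipocyte factor, by 0.78 ± 0.22. Cebpb, the factor of early adipocyte differentiation, was 12.55 ± 0.14 in Gadd45a-KO and 13.21 ± 0.18 in DKO (0.66 ± 0.24, adjusted p = 0.0824), and Cebpe, the granulocyte factor, differed by -1.44 ± 0.48 (adjusted p = 0.061, and 0.0421 with the slide as a block, where it passed). In the reduced fits 2, 1, 2 and 1 of the 7 rose.

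Of 25 genes of DNA methylation and its removal 7 fell and 0 rose, with a median of -0.11 and 1, 0, 2 and 1 in the reduced fits. Tet1, which oxidises methylcytosine, read 7.98, 7.83 and 8.11 in Gadd45a-KO and 7.24, 7.14 and 7.35 in DKO (-0.73 ± 0.14, adjusted p = 0.0126), a call lost only without Gadd45a-KO replicate 3. The replication-linked genes Uhrf1 and Dnmt1 fell by 0.90 ± 0.21 and 0.64 ± 0.17, both lowest on DKO replicate 2, and the deaminase Apobec1 by 0.64 ± 0.15. Tdg, the glycosylase that excises oxidised methylcytosine, differed by less than its error (7.47 ± 0.14 and 7.47 ± 0.38). p53 targets were divided around a median of 0.04, with 2 of 21 up and 3 down. The reduced fits gave 1, 0, 1 and 0 up and 1, 1, 1 and 2 down, and the median lay between -0.02 and 0.11 over all alternatives. The pro-apoptotic Pmaip1 (Noxa) read 10.31, 10.22 and 10.63 against 9.12, 8.48 and 9.50 (-1.36 ± 0.23, adjusted p = 0.0099). Gdf15 fell by 1.12 ± 0.26, the p53 ubiquitin ligase Mdm2 by 0.43 ± 0.11, and Ei24 rose by 0.71 ± 0.15. Of 17 immediate early genes Dusp1 rose and Egr2 (-0.75 ± 0.22) and Nr4a1 (-0.41 ± 0.12) fell, and none of the 17 passed in any of the reduced fits. The calls were kept in 7 of the 12 fits that left out 1 array for Dusp1, in 5 for Egr2 and in 3 for Nr4a1.

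Other lists showed little. Of 22 interferon-stimulated genes 0 passed in limma, and from 0 to 3 fell in the alternatives, with 3 without DKO replicate 3 and 2 without Ing1-KO replicate 3. Their median was -0.31, and the smallest p was that of Oas1a (-0.79 ± 0.26, adjusted p = 0.06, and 0.0459 with the slide as a block, where it passed). Among 25 matrix genes, the collagen cross-linker Lox rose by 1.18 ± 0.26 and the basement membrane collagen Col4a1 by 0.83 ± 0.25, and the protease inhibitor Timp1 fell by 1.58 ± 0.47. Of the matrix genes 1, 0, 0 and 0 rose and none fell in the reduced fits, and of the 12 fits that left out 1 array 9 kept the call of Lox, 5 that of Col4a1 and 3 that of Timp1. The matrix median was 0.15, and -0.11 without DKO replicate 2. Of 19 endothelial markers Tek, the angiopoietin receptor, rose by 0.97 ± 0.24 and Plvap, of fenestrated and leukocyte-trafficking endothelium, fell from 12.91, 13.00 and 13.00 to 12.24, 12.24 and 12.36 (-0.69 ± 0.11, adjusted p = 0.0099). Plvap kept its call without any 1 array and Tek rose in none of the reduced fits, and the list's median was 0.38, and 0.11 without DKO replicate 2. Thy1 was the only 1 of 14 progenitor markers that passed (-0.86 ± 0.19), and 1, 0, 0 and 0 of them fell in the reduced fits. Of 8 mast cell markers none passed (median -0.46), 0, 0, 0 and 1 fell in the reduced fits, and the high-affinity IgE receptor gene Fcer1a, above background on 2 of 3 DKO arrays, differed by -1.66 ± 0.52 (adjusted p = 0.0503).

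Markers of tissues that dissection can carry over were measured beside these results. Skeletal muscle markers had list levels of 0.97, -0.63 and -0.55 in Gadd45a-KO and 2.02, -0.78 and -0.80 in DKO, so replicate 1 of both groups was high, and 1 of 18, Myl1, passed (1.11 ± 0.28), with none in the reduced fits. Their summed signal was 6606 to 12956 in Gadd45a-KO and 11129 to 23716 in DKO. The median difference of fatty acid oxidation was 0.85 on the slide with the raised muscle level and 0.90 and 1.03 on the others. Whether muscle had a part in it was not tested. Mesothelial markers, 7 of 13 tested, had levels of 1.63, 0.83 and 0.17 in Gadd45a-KO and -0.47, 0.39 and -0.09 in DKO and fell in the same array order within Gadd45a-KO as the neutrophil list; Slpi fell and Lrrn4 rose (0.86 ± 0.21), with 0, 1, 0 and 0 falls and no rise in the reduced fits. Summed, they were 1509 to 6019 in Gadd45a-KO and 451.4 to 1199 in DKO. Whether mesothelium had a part in the neutrophil values was not tested. Of 8 red blood cell genes 3 globin genes rose, the beta globins Hbb-b2 (0.86 ± 0.24) and Hbb-bt (0.68 ± 0.20), whose probes may read each other, and the alpha globin Hba-a1 (0.79 ± 0.24) (median 0.69, and 0.44 without Gadd45a-KO replicate 3; 0, 0, 0 and 0 in the reduced fits). The groups overlapped for Hba-a1, which did not pass with the slide as a block (adjusted p = 0.0542). Their summed signal was 146170 to 259070 against 255260 to 355310. Testis and epididymis lie beside gonadal fat: 9 of 18 germ cell genes were bright enough to test, of which Spaca1 rose and Tnp2, above background on 2 of 3 DKO arrays, fell by 1.54 ± 0.43, and 1 of 13 epididymis genes, Rnase10 (-0.18 ± 0.18, adjusted p = 0.551).

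Since DKO and Gadd45a-KO differ in a deletion on chromosome 8, genes near Ing1 were set apart. Within 5 Mb of Ing1 48 genes were tested, of which 5 rose and 1 fell (12.5%, against 19.9% of all named genes). Grtp1 (1.17 ± 0.31), Col4a1, the ubiquitin ligase scaffold Cul4a (0.58 ± 0.14), the NAD(P)HX repair enzyme Naxd (0.36 ± 0.11) and Mcf2l (0.52 ± 0.15) rose, and Atp11a, a phospholipid flippase, fell by 0.61 ± 0.09 (adjusted p = 0.00834). Naxd, 0.05 Mb away, was the nearest of them. Within 20 Mb, 17.9% of 162 genes changed.

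The same loss of Ing1 with Gadd45a present, Ing1-KO against WT, used none of these 6 arrays, although each slide held 1 array of every genotype. There 1 of 31453 probes passed (0.00318%), that of Ing1 (-3.06 ± 0.14), and 2706 had an unadjusted p under 0.05. Of the 2040 probes higher in DKO than in Gadd45a-KO, 1959 (96.0%) were also higher in Ing1-KO than in WT, where 43.8% of all probes were. Of the 2664 lower, 2540 (95.3%) were lower in Ing1-KO, against 56.2% of all. The differences were smaller on that side, with medians of 0.28 against 0.73 for the first set and -0.29 against -0.85 for the second, but the sets were chosen by their size in the Gadd45a-null pair. Fatty acid oxidation had a median of 0.33 there, T cell markers -0.35 and neutrophil markers -0.20.

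The difference between the backgrounds was tested directly as the interaction, the change with Ing1 loss on the Gadd45a-null background minus that on the other. None of 31453 probes passed in limma (smallest adjusted p = 0.633), 1866 had an unadjusted p under 0.05, and none passed in any alternative. The larger number of calls on the Gadd45a-null background is thus not shown to reflect larger changes. By smallest p the interaction was led by Ccl12 (-1.74 ± 0.15 against -0.32 ± 0.15), Pdgfrl (1.51 ± 0.25 against -0.43 ± 0.25), Epb41l3 (-0.87 ± 0.10 against -0.09 ± 0.10), Csmd1 (-1.33 ± 0.22 against 0.26 ± 0.22) and Tspan10 (-1.78 ± 0.23 against -0.17 ± 0.23), none of which passed. For 4 genes named above the values were closer in size, in the Gadd45a-null pair and the other in turn: Slitrk4 by 1.87 and 1.55, Spaca1 by 1.86 and 1.44, Acot4 by 1.50 and 1.22 and Tet1 by -0.73 and -0.74.

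**Figure D5:**
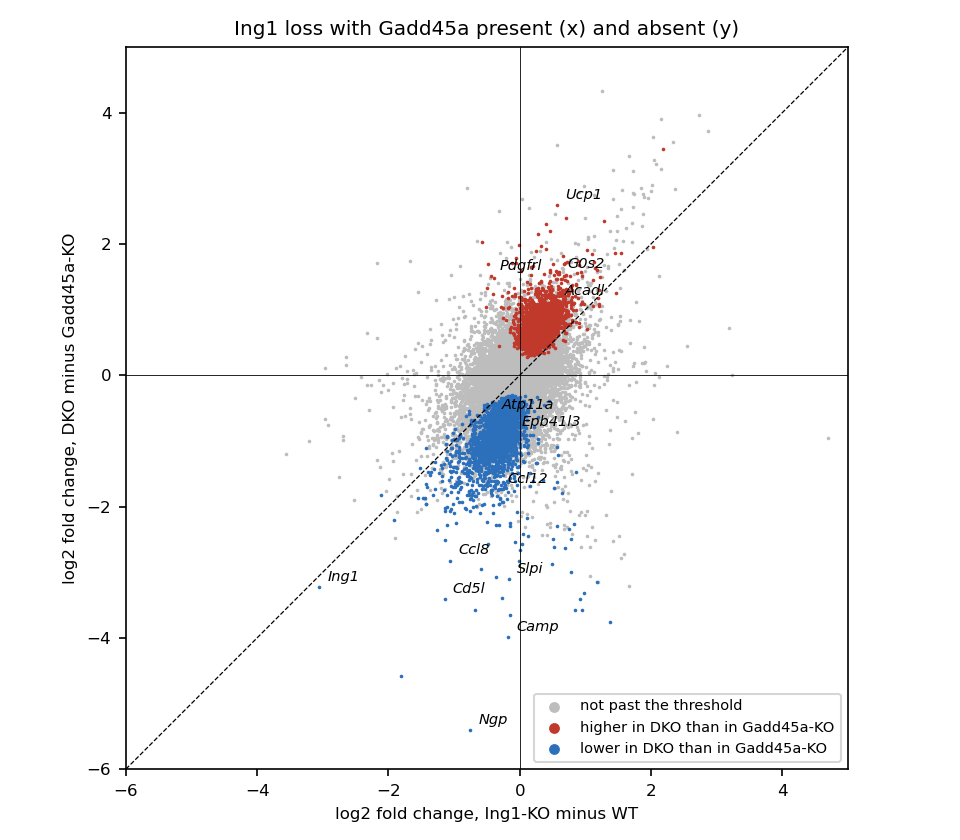
Log2 difference with Ing1 loss where Gadd45a was present (Ing1-KO minus WT, x axis) and where it was absent (DKO minus Gadd45a-KO, y axis) for 31453 probes, coloured by the call in the Gadd45a-null pair, with the line of equal change dashed. Ing1 lies near that line at -3.06 and -3.23, while most called probes lie farther from 0 on the y axis than on the x axis, as their choice by the y value favours.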

How the data were processed

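RNA from gonadal fat was labelled with Cy3 and hybridised to Agilent arrays of 1 colour. The deposited scanner files hold each spot's intensity, background-corrected by Feature Extraction 10.7.3.1 on an mm9 grid, per the file headers. The authors' deposited log2 values, for which limma 3.26.9 is named in the submitters' processing notes, cover 38927 probes and served as an alternative; each column matched its own array (r at least 0.843).

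From the processed intensity, 94 probes with marked spots were dropped, log2 values were shifted to a common 75th percentile, and a probe stayed in if 3 or more of the 12 arrays marked it well above background, with 1 probe per gene, the brightest. RefSeq accessions named 27469 probes. All 12 arrays were fitted in limma 3.58.1 (R 4.3.3) with 4 genotype means, an intensity trend and robust moderation (8 residual degrees of freedom), two-sided with Benjamini-Hochberg adjustment. An exact permutation test of 3 against 3 cannot go below 0.1. The replicate number is also the slide. Same-numbered Gadd45a-KO and DKO arrays deviated from their group means with correlations of 0.24, -0.14 and 0.10, and the main fit did not pair them. Arrays of different number were not set beside these, so the 3 values cannot show that the slide had no effect. The slide as a block served as an alternative. With arrays, precision is limited by their number.

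The comparison, gene lists and motifs were chosen with earlier results of these data known. Genes named are Ing1 and Gadd45a, the 12 largest called rises and falls without overlap, up to 4 members of each list and 5 interaction genes by smallest p, and called neighbours of Ing1; others were chosen after their values were seen. The computation was checked on simulated data with independent noise. Those data held no slide effect and no shared movement of genes, so the check does not cover either.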

Additional observations from a re-analysis of the deposited data

How the results depend on the processing

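All settings here were applied to the comparison of DKO with Gadd45a-KO. The 4704 calls became 3062 with no filter on dim probes and 502 with only the 6 arrays compared; leaving out single arrays gave 539 to 7065. Quantile scaling gave 4972 calls, median centring 4246, normexp 3896, the authors' values 4198, plain empirical Bayes 3264, every probe 5594 and probes above background on all 12 arrays 4887. The median of all probes moved by under 0.1 with scaling. With the replicate number, which is the slide, as a block, the replicate block fit called 6086, of which 4637 were among the 4704. The block moved the counts of the C/EBP, PPAR, progenitor, endothelial, glucocorticoid, interferon and lipolysis lists by over 1.5 times: 2 C/EBP factors and 1 interferon gene fell, and 2 endothelial markers rose. In the progenitor list 1 rose and 2 fell. The interaction stayed at 0 calls in all of these. Of the 157 calls followed among named genes, which include genes chosen for their small p, 57 were kept in all settings other than leaving out an array, and none reversed. Probes near background have little precision, and 15499 tested probes are unnamed.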
